A study of Mus musculus with 24 samples.

Results

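The 6 libraries described here, of 24 in the series, come from co-cultures of spleen lymphocytes with macrophages grown from bone marrow (BMDMs), in which the BMDMs were WT in 3 libraries and Tmem175-/- (knockout) in the other 3. The mice that gave the lymphocytes had tumours of B16-F10-OVA, melanoma cells of the mouse engineered with ovalbumin, and all 6 co-cultures received antigen of B16-F10-OVA cells together with interleukin-18 (IL-18) at 500 pg/ml. The members were chosen by sample title, 3 libraries a genotype, and the comparison asks what the missing channel changes once antigen and IL-18 are both present. The other 18 libraries hold both genotypes without antigen, with antigen alone, and with antigen plus interleukin-1β (IL-1β) at 500 pg/ml, again 3 each. Only the BMDMs are stated to carry the genotype. The genotype of the lymphocytes, the strain, the age, the time in culture, the deleted stretch of Tmem175 and any pooling of animals are not given in the sources used here. Nothing says that the 3 libraries of a group came from separate mice or cultures. The p-values therefore measure only the spread between libraries of a group, pooled over all 24 libraries, and that spread may be technical. RNA was taken from the whole co-culture. A lower level of a transcript can therefore mean fewer cells of a type or less RNA per cell, which cannot be told apart in these bulk samples.

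TMEM175 is a channel of the lysosomal membrane that passes potassium and protons and takes part in setting the pH inside the lysosome. Lysosomes of macrophages degrade engulfed material with acid hydrolases and cathepsins, and the same compartments load peptides onto MHC class II molecules for presentation to T cells. IL-18 is a cytokine of the IL-1 family that inflammasomes release in active form. Its receptor, made of IL18R1 and IL18RAP, signals through MYD88 to the transcription factor NF-κB, and IL-18 is best known for driving interferon-γ production in T and natural killer cells.

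The 6 libraries held 18768422 to 24636821 counts, and 14099 genes had enough counts to be tested. Levels are given as CPM, each gene's counts scaled to a common library total, on library sizes scaled by edgeR's TMM factors, always in the order of replicates 1, 2 and 3. Differences are log2 fold changes of knockout over WT with their standard errors from edgeR's quasi-likelihood fit, and a gene is called where its Benjamini-Hochberg adjusted p over all tested genes is under 0.05. Tmem175 (ENSMUSG00000013495) was counted at 12.8, 16 and 14.6 CPM in WT libraries and 7.83, 8.8 and 8.13 CPM in knockout libraries. The knockout libraries were all below the WT libraries, and the difference was -0.82 ± 0.084 (adjusted p 2.46e-08), so that RNA counted to the gene was 1.76-fold lower and not absent. Which part of the transcript those counts come from cannot be read from a table of counts per gene. The genotype field of the knockout samples with IL-18 names other, consecutively numbered genes (Tmem184, Tmem185, Tmem186), whereas their titles and the series design name Tmem175. The deposited cell type, immune cells, was set against marker lists. Macrophage markers such as Adgre1 and Csf1r summed to 24810 to 27250 CPM in WT and 19360 to 20420 CPM in knockout libraries, of which Lyz2 made up more than any other gene. The 15 T cell markers summed to only 35.5 to 41.9 CPM in WT and 40.1 to 49 CPM in knockout libraries. Of the 7 melanoma markers, Mlana, Tyr, Tyrp1, Dct and Sox10 had at most 3 counts over the 3 libraries of a genotype, and Mitf, which macrophages also express, was the only one with enough counts to be tested.

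**Figure D1:**
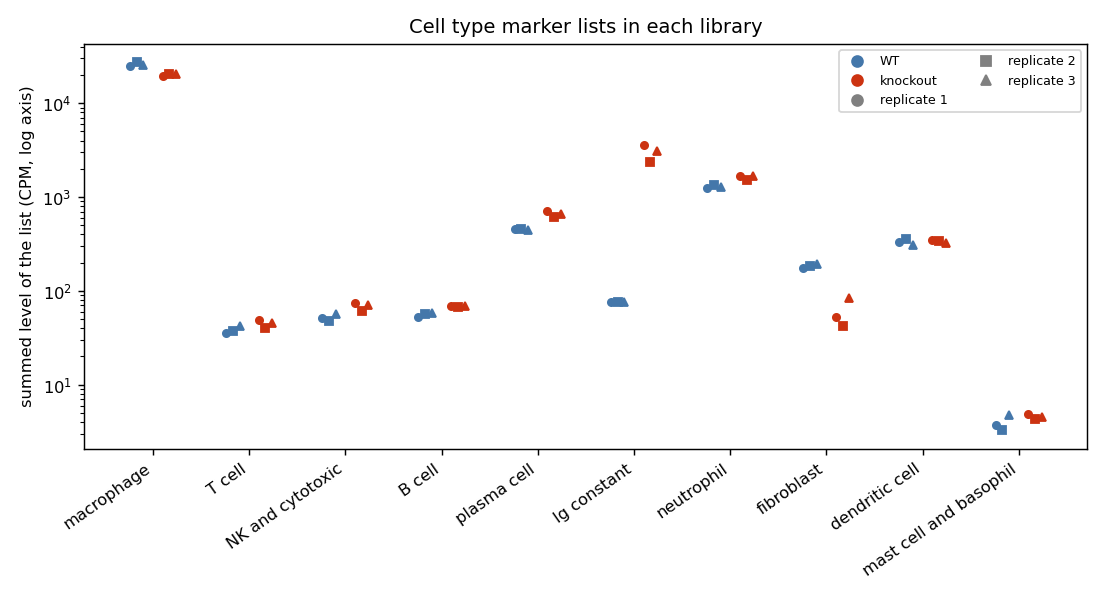
Summed CPM of the genes in each cell type marker list (log axis), 1 point per library, WT and knockout with antigen and IL-18. Immunoglobulin constant-region genes run from 2390 to 3614 CPM in the knockout libraries against 75.9 to 76.6 CPM in WT, fibroblast markers are lower in all 3 knockout libraries, and the T cell sums overlap.

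With antigen and IL-18 present, knockout and WT differed at 2851 of the 14099 tested genes, 20.2% of them. In the knockout 1395 genes (9.89%) were higher and 1456 (10.3%) were lower. Most differences were small: 286 genes (2.03%) were called and at least 2-fold higher, and 282 (2%) were called and at least 2-fold lower. The median log2 fold change of all tested genes was 0.00531, and the median standard error was 0.0843. At 4930 genes (35%) the 3 libraries of one genotype all lay beyond those of the other, and at 2693 (19.1%) the difference was also called. Since 2693 of the 2851 called genes did not overlap, a lack of overlap given below adds little to a call. The fit was repeated 6 times, each time without 1 of the compared libraries (leave-one-out fits). The call count rested in part on WT replicate 3, without which 1867 genes were called, 910 higher and 957 lower. Genes called lower had longer transcripts, with a median of 4845.5 bases for the longest transcript against 3160 bases for all tested genes and 2577 bases for genes called higher. Leaving immunoglobulin genes out raised the last value to 2867 bases. The part of transcript length in the calls was not tested beyond a fit that removes a length trend from each library, in which 2523 genes were called.

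**Figure D2:**
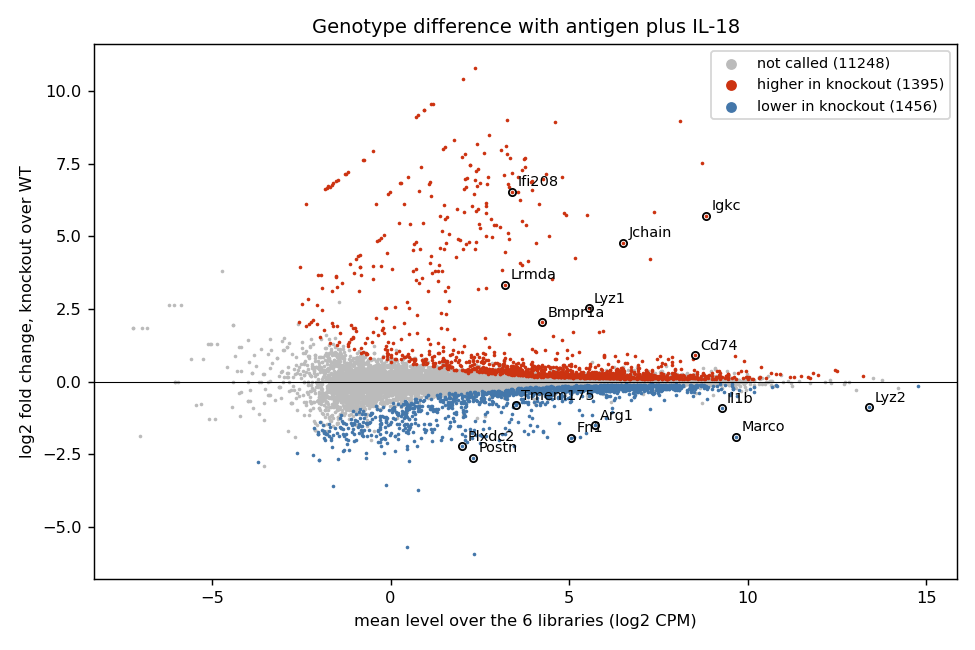
Log2 fold change of knockout over WT with antigen and IL-18 (vertical axis) against the mean level in log2 CPM (horizontal axis), 1 point per tested gene, called genes in colour. The 178 immunoglobulin genes called higher lie mostly towards the top (median 5.78 over all tested immunoglobulin genes), with other genes such as Ifi208 and Jchain among them. Most of the 2851 called genes lie within 1 log2 unit of no change.

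Outside immunoglobulin genes, the highest folds at genes of at least moderate level belonged to transcripts of unlike function. Ifi208, a member of the interferon-inducible PYHIN family, was at 0.253, 0.261 and 0.14 CPM in WT and at 18.3, 26.6 and 18.3 CPM in knockout libraries. The WT level rested on 14 counts in all, and the ratio was 93.3-fold (log2 fold change 6.54 ± 0.33, adjusted p 2.06e-11). Whether the mice of the 2 genotypes share a strain and source is not given in the sources used here. A difference of strain or source therefore cannot be told apart from the missing channel at this gene or at any other called here. That includes Lyz1 and the immunoglobulin genes described further on. Lrmda, a melanocyte differentiation gene of the leucine-rich repeat type, rose from 1.47, 1.48 and 2.01 CPM to 16.6, 18.4 and 15.7 CPM, which is 10.2-fold (adjusted p 6.83e-18). Bmpr1a, a type I receptor for bone morphogenetic proteins, rose from 7.5, 6.71 and 7.84 CPM to 29, 30.5 and 31.5 CPM, which is 4.14-fold (adjusted p 5.85e-18). In these 3 genes every knockout library lay above every WT library by a wide margin. Lack of overlap was a condition for ranking genes by fold, so it adds no support to their calls. Gdf3, a ligand of the TGF-β superfamily, was at 5.52, 4.27 and 4.71 CPM in WT and 14.3, 16.1 and 14.7 CPM in knockout libraries (1.64 ± 0.12). F7, coagulation factor VII, was 2.02-fold higher, and Arhgef18, a guanine nucleotide exchange factor, was 2.2-fold higher. Among complement genes C4b, a component of the classical pathway, stood at 10.9, 12.1 and 12.1 CPM in WT and 34.1, 36.7 and 34.5 CPM in knockout libraries (1.58 ± 0.14). Of 16 tested complement genes 4 rose (25%, beside 9.89% of all tested genes). Called lower were 3 (18.8%, beside 10.3%), namely Cd55, C1s1 and Serping1. C1s1 kept its call in 5 of the 6 leave-one-out fits (lost without knockout replicate 3, adjusted p up to 0.0509) and Serping1 in 3 of the 6 leave-one-out fits (lost without WT replicates 1 and 3 and without knockout replicate 2, adjusted p up to 0.0611). The C1q chains that macrophages make in quantity did not pass: C1qa differed by 0.15 ± 0.069 and C1qb by 0.14 ± 0.067. With the replicate block, which takes same-numbered libraries as pairs, both were called (adjusted p 0.018 and 0.0185), as were 7 complement genes higher in all.

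Among the genes that fell furthest were 2 receptors of the plasma membrane. Marco, a scavenger receptor that binds bacteria and particles, was at 1125, 1596 and 1148 CPM in WT and at 326, 340.3 and 372 CPM in knockout libraries. It fell 3.73-fold (-1.90 ± 0.12 on the log2 scale, adjusted p 3.67e-09). Plxdc2, a membrane protein with a plexin domain, fell from 6.38, 7.14 and 6.34 CPM to 1.45, 1.66 and 1.22 CPM, 4.64-fold (adjusted p 1.54e-11). WT replicate 2 was the highest library for Marco, and no knockout library came near the lowest WT library for either gene. Here too lack of overlap was a condition of the ranking, and a gene low in the knockout, such as Plxdc2, passed the level filter through WT. Kcna2, a voltage-gated potassium channel, was 3.58-fold lower and Draxin, a secreted guidance protein, 3.54-fold lower. The remaining genes of the 20 that fell furthest encode matrix proteins or proteins that act on them, such as Tnc, tenascin C (18.4, 18.9 and 17.2 CPM in WT and 3.19, 2.57 and 5.69 CPM in knockout libraries, -2.21 ± 0.41) and Postn, described with the fibroblast markers.

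**Figure D3:**
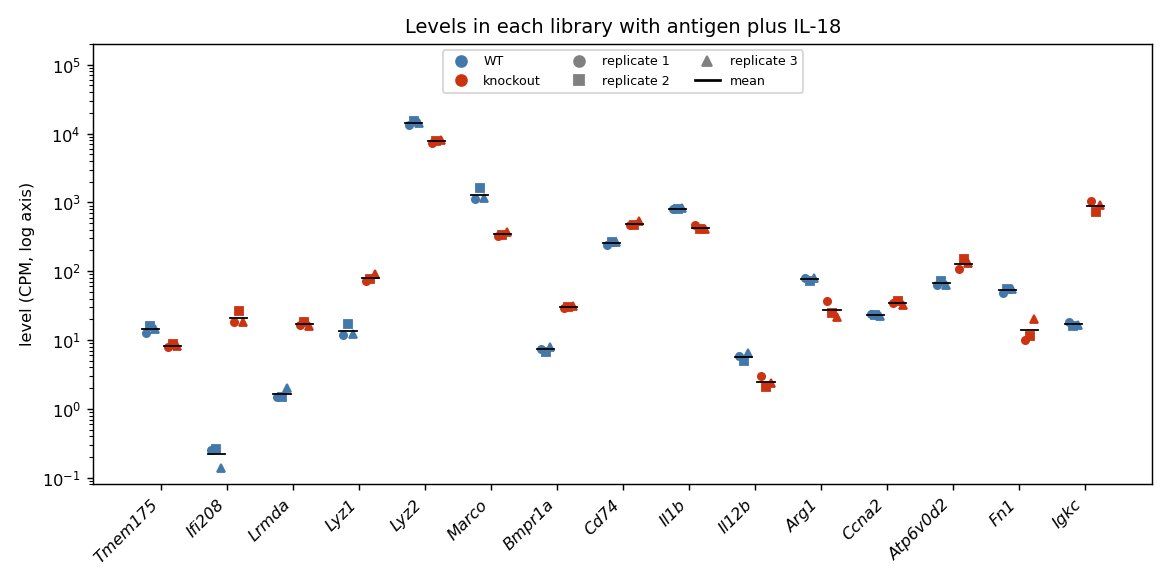
CPM (log axis) of 15 genes in each of the 6 libraries, with 3 WT and 3 knockout points per gene. Genotypes are separate for every gene drawn, and Fn1 shows knockout replicate 3 above the other 2 knockout libraries.

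Of 9 tested genes of IL-18 signalling, the pathway that the added cytokine uses, 1 was higher and none lower, with a median log2 fold change of 0.046. The share called, 11.1%, stands beside 20.2% of all tested genes. The gene that rose was Myd88, the adaptor below the IL-1, IL-18 and Toll-like receptors, at 81.4, 83.3 and 80.6 CPM in WT and 95.4, 91.1 and 91.9 CPM in knockout libraries (0.18 ± 0.045, adjusted p 0.00422). Il18 itself differed by 0.046 ± 0.11, the receptor chains Il18r1 by 0.46 ± 0.22 and Il18rap by 0.031 ± 0.14, and the soluble inhibitor Il18bp by 0.34 ± 0.24. None of these passed the test, and the 2 receptor chains were at 1.04 to 6.09 CPM in all 6 libraries. In the fit of the 6 compared libraries alone Il18bp was called higher (adjusted p 0.00508), and with the replicate block Traf6, a ubiquitin ligase of the pathway, was called lower (adjusted p 0.049). Ifng, which encodes the interferon-γ that IL-18 is known to induce, was at 2.43, 2.44 and 2.19 CPM in WT and 3.87, 1.98 and 2.77 CPM in knockout libraries, with overlapping groups and a difference of 0.29 ± 0.23 (adjusted p 0.4). Of 13 tested inflammasome genes 1 passed: Casp4, a sensor of intracellular lipopolysaccharide, was higher by 0.31 ± 0.072. The share called, 7.69%, is below the 20.2% of all tested genes. Nlrp3 differed by -0.18 ± 0.10 and Casp1, the protease that cleaves pro-IL-1β and pro-IL-18, by 0.048 ± 0.083, neither of them called, although Nlrp3 was called lower in the fit of the 6 compared libraries alone (adjusted p 0.0076).

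Within the IL-1 family the agonists Il1a and Il1b fell and the receptor antagonist rose. Il1b was at 807, 805 and 815 CPM in WT and 467, 408 and 408 CPM in knockout libraries, 1.89-fold lower (adjusted p 0.00274), although DESeq2's Wald test did not call it (adjusted p 0.0818). Il1a was at 37.5, 47.1 and 41.7 CPM and 32, 34.2 and 31.9 CPM (-0.37 ± 0.062). Il1rn, which encodes the receptor antagonist that blocks both, was at 156, 138 and 145 CPM in WT and 256, 187 and 188 CPM in knockout libraries (0.52 ± 0.11, adjusted p 0.00302). In a fit of the 6 compared libraries alone the last call was lost (adjusted p 0.0755). For each of these 3 genes the genotypes did not overlap. Il1f9, which encodes the related agonist IL-36γ, was higher by 0.75 ± 0.13. The receptor Il1r1 differed by -0.41 ± 0.16 and was not called, but passed with the replicate block (adjusted p 1.86e-05).

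Inflammatory cytokines were lower where they differed: of 15 tested genes 6 fell (40%, beside 10.3% of all tested genes) and none rose. The median was -0.28. Without WT replicate 2 or knockout replicate 3, 1 gene was called higher. The subunits of interleukin-12, which primes T cells for interferon-γ production, both fell. Il12b was at 5.88, 4.92 and 6.44 CPM in WT and 3, 2.09 and 2.36 CPM in knockout libraries (-1.20 ± 0.19, adjusted p 2.83e-05), and Il12a was at 12.3, 10.4 and 13 CPM and 7.92, 6.38 and 7.12 CPM (-0.73 ± 0.15, adjusted p 8.56e-04). Csf1, the growth factor on which macrophages depend, stood at 20.8, 21 and 23 CPM and 12, 10.2 and 15 CPM (-0.78 ± 0.16), and Lif at 3.85, 3.48 and 4.99 CPM and 2.75, 1.77 and 2.85 CPM (-0.72 ± 0.17). In none of these 4 genes did a knockout library reach the lowest WT library. Il6 fell as well (-0.97 ± 0.24), and Il15 by less (-0.26 ± 0.074), with a call in 4 of the 6 leave-one-out fits (lost without WT replicate 2 and without knockout replicate 3, adjusted p up to 0.14). Tnf lay lower in all 3 knockout libraries but missed the threshold (-0.38 ± 0.14, adjusted p 0.0617; 0.00995 with the replicate block), and the anti-inflammatory Il10 differed by 0.075 ± 0.25 with overlapping groups.

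Of 16 tested NF-κB subunits and feedback inhibitors 6 fell (37.5%, beside 10.3% of all tested genes) and none rose. The median was -0.095. Tnfaip3, which encodes the ubiquitin-editing inhibitor A20, was at 82.5, 84.8 and 82.4 CPM in WT and 69.3, 65.5 and 64.9 CPM in knockout libraries (-0.32 ± 0.051, adjusted p 3.02e-05). The subunit Rel stood at 70.9, 67.8 and 72.2 CPM and 56.7, 60.8 and 56.6 CPM (-0.28 ± 0.05, adjusted p 1.73e-04), and Nfkbiz, an atypical IκB protein that acts in the nucleus, at 198, 179 and 191 CPM and 151, 133 and 150.2 CPM (-0.39 ± 0.087). These 3 genes separated the genotypes completely. Nfkbia and Nfkb1 were called lower too, but Nfkbia kept its call in 3 of the 6 leave-one-out fits (lost without WT replicate 1 and without knockout replicates 2 and 3, adjusted p up to 0.0937) and Nfkb1 in 1 of the 6 leave-one-out fits (that without knockout replicate 3, adjusted p up to 0.212 in the others), and the list held 3 called genes without WT replicate 1 or without knockout replicate 2. The subunits Rela (0.08 ± 0.044) and Relb (0.013 ± 0.055) were not called.

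Chemokines moved in both directions. Of 8 tested CXC chemokines 2 rose (25%) and 1 fell (12.5%), with a median of -0.20. Of all tested genes 9.89% rose and 10.3% fell, so the share of CXC chemokines that fell is near the latter. Cxcl1, a neutrophil attractant, was at 10.7, 12 and 11.9 CPM in WT and 5.9, 5.04 and 5.94 CPM in knockout libraries (-1.03 ± 0.13, adjusted p 6.72e-07), whereas its relative Cxcl2 differed by -0.21 ± 0.17 and was not called. The genes that rose were Cxcl14 (0.52 ± 0.15) and Cxcl16, which also exists as a membrane-bound ligand (0.21 ± 0.051). Cxcl14 kept its call in 2 of the 6 leave-one-out fits (lost without WT replicates 2 and 3 and without knockout replicates 1 and 3, adjusted p up to 0.0764). Of 10 tested CC chemokines 4 rose (40%) and 2 fell (20%). Ccl22, a ligand of CCR4 made by activated macrophages and dendritic cells, fell from 13.3, 13.5 and 17.7 CPM to 6.72, 4.93 and 6.42 CPM (-1.29 ± 0.15, adjusted p 9.9e-07), and Ccl3, an attractant of monocytes and T cells, from 142, 124 and 133 CPM to 97.4, 86.5 and 94.9 CPM (-0.52 ± 0.089). Ccl6 rose from 527, 586 and 556 CPM to 887, 1169 and 1064 CPM (0.90 ± 0.14, adjusted p 1.74e-04), Ccl8 was 2.15-fold higher and Ccl9 1.28-fold higher. The groups did not overlap for Cxcl1 or for any of these 5 CC chemokines. Ccl5 lay lower in every knockout library and did not pass (-0.73 ± 0.28, adjusted p 0.0837), but was called in the fit of the 6 compared libraries alone (adjusted p 0.0123).

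A script searched the 250 bases before the start of each gene in RefSeq's promoter table (build GRCm38.p6) for a form of the NF-κB site, GGG followed by any 3 bases and TTCC, on both strands. Where a gene had several starts listed, only 1 was searched and counted from, kept by order of coordinate and not by use. Of the cytokine and CXC chemokine genes 18 had a promoter in the table and 7 of these (38.9%) held the letters, against 4.65% of all 27025 promoters. The called genes were not confined to promoters with the letters: 3 of 6 tested genes with them fell, and of 9 tested genes without them 3 fell and 1 rose. The promoters of Il6 and Cxcl1 are shown because both genes fell and both windows hold the letters. Capitals mark the matches, which lie at -44 to -35 in Il6, and at -89 to -80 and -71 to -61 in Cxcl1, counted back from the first transcribed base; the latter stretch is a pair of overlapping matches, 1 on each strand.
Il6 (chr5:30012864-30013113, plus strand): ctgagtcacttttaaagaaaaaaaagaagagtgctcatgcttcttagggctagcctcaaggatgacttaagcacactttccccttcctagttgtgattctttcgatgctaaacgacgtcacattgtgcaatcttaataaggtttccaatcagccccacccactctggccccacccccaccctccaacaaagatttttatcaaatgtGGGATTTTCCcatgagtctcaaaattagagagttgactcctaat
Cxcl1 (chr5:90890995-90891244, plus strand): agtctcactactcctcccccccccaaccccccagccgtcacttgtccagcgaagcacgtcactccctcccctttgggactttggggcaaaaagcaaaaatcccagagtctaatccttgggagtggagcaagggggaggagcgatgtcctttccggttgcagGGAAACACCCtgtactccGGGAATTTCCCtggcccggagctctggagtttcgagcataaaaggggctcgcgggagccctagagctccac

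Prostaglandin genes were divided between the enzymes. Ptgs2, the inducible cyclooxygenase, was at 208, 192 and 211 CPM in WT and 131, 81.3 and 109 CPM in knockout libraries (-0.93 ± 0.25, adjusted p 0.0157), and Ptges, the synthase that acts after it, at 38.6, 38.7 and 37.3 CPM and 28.8, 27.2 and 24.6 CPM (-0.51 ± 0.07). Ptgs1, the constitutive cyclooxygenase, went the other way, from 15.5, 16.9 and 16.7 CPM to 23.7, 21.7 and 24.2 CPM (0.50 ± 0.081, adjusted p 3.98e-05). The genotypes were separate for all 3. Ptgs2 kept its call in 4 of the 6 leave-one-out fits (lost without WT replicate 3 and without knockout replicate 2, adjusted p up to 0.066), and DESeq2's Wald test did not call it (adjusted p 0.0654). Of 12 tested genes of prostaglandin and leukotriene synthesis 4 rose (33.3%) and 2 fell (16.7%), beside 9.89% and 10.3% of all tested genes. Called higher were 2 without WT replicate 1 or 3, and called lower was 1 without WT replicate 3 or knockout replicate 2. Arg1, arginase 1, fell from 80.9, 71.6 and 80.4 CPM to 36.7, 24.6 and 21.3 CPM, 2.83-fold (adjusted p 1.22e-04), and Slc7a2, a transporter of arginine, was 1.65-fold lower. Nos2, the inducible nitric oxide synthase that uses the same substrate, did not pass (-0.45 ± 0.26). Arg1 is also on the list of alternative activation genes, of which 4 of 9 tested rose (44.4%, beside 9.89% of all tested genes) and only Arg1 fell. Those that rose were Mrc1, Chil3, Irf4 and Clec10a, and the last 3 also stand on cell type marker lists described below. Clec10a kept its call in only 1 of the 6 leave-one-out fits. Mrc1, the mannose receptor, was at 148, 192 and 167 CPM and 251, 344 and 315 CPM (0.84 ± 0.14), and Chil3, a chitinase-like protein, at 43.1, 43.4 and 47.8 CPM and 87.7, 69.5 and 87 CPM (0.87 ± 0.13). In both genes the 3 knockout libraries lay above the 3 WT libraries.

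Whether interferon-stimulated genes were called rested on which libraries set the spread. Of 20 tested type I interferon response genes 1 was called (5%, beside 20.2% of all tested genes). This was Oasl1 (0.46 ± 0.15), which kept its call in 1 of the 6 leave-one-out fits (that without knockout replicate 3, adjusted p up to 0.171 in the others). Of 15 tested GTPases of the GBP and IRG families, which interferon-γ induces, none was called by edgeR's quasi-likelihood test or by DESeq2 (0 at an unadjusted p under 0.05), with a median of 0.27. Gbp2 stood at 531, 638 and 652 CPM in WT and 855, 717 and 759 CPM in knockout libraries. The knockout libraries were all above the WT libraries for Gbp2, but the standard error, from the spread over all 24 libraries, was wide (0.36 ± 0.40, adjusted p 0.589). In a fit of the 6 compared libraries alone, where only these libraries set the spread, 10 of the 15 GTPases were called higher. Ifi47, a GTPase of the IRG family, was at 151, 176 and 171 CPM in WT and 221, 209 and 213 CPM in knockout libraries, and Irgm1 at 302, 333 and 339.7 CPM and 389.9, 394 and 394 CPM. The genotypes were separate for both, and the fit of 6 libraries gave adjusted p 1.91e-04 for Ifi47 and 4.72e-04 for Irgm1, against 0.324 and 0.473 in the fit of all 24. The same smaller fit called the type I interferon genes Zbp1, Oasl2, Rtp4 and Oas1a higher and no longer Oasl1 (adjusted p 0.0614). With the replicate block Oasl1, Oas1a and Ifit3 were called.

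MHC class II genes were higher in the knockout. Of 13 tested 8 rose (61.5%, beside 9.89% of all tested genes) and 1 fell (7.69%, beside 10.3%), with a median of 0.57. Ciita, the transactivator that switches the class II genes on, was at 10.6, 10.8 and 10.8 CPM in WT and 18.3, 23.3 and 26.1 CPM in knockout libraries (1.07 ± 0.34, adjusted p 0.0336). H2-Aa, the alpha chain of the I-A molecule, was at 116, 142 and 138 CPM and 228, 229 and 269 CPM (0.87 ± 0.25, adjusted p 0.0222), and H2-Eb1, the beta chain of I-E, at 71.7, 89.1 and 81.2 CPM and 139, 143 and 161 CPM (0.87 ± 0.28, adjusted p 0.0357). In each of them the 3 knockout libraries lay above the 3 WT libraries, but the calls were close to the threshold: Ciita kept its call in 1 of the 6 leave-one-out fits (that without knockout replicate 1, adjusted p up to 0.109 in the others), H2-Aa in 3 of the 6 leave-one-out fits (lost without WT replicates 1 and 3 and without knockout replicate 3, adjusted p up to 0.081) and H2-Eb1 in 0 of the 6 leave-one-out fits (adjusted p up to 0.111). The count of class II genes called higher was 3 to 5 in the same 6 fits. The genes of antigen processing were firmer. Ifi30, the thiol reductase that unfolds antigens in the lysosome, rose from 125, 137 and 125 CPM to 222, 223 and 216 CPM (0.77 ± 0.059, adjusted p 8.25e-10), and Ctss, the cathepsin that trims the invariant chain, from 4626, 5103 and 4696 CPM to 6176, 6663 and 6374 CPM (0.41 ± 0.066, adjusted p 1.43e-04). Each kept its call in all 6 leave-one-out fits, as did Cd74, the invariant chain itself (0.92 ± 0.23). H2-Ob, a chain of the peptide-loading inhibitor H2-O that B cells express, was the 1 gene that fell (-0.79 ± 0.19). Of 13 tested MHC class I genes 1 was called (7.69%, beside 20.2% of all tested genes). This was H2-D1 (0.13 ± 0.042), called in 2 of the 6 leave-one-out fits (lost without WT replicates 1 and 3 and without knockout replicates 1 and 2, adjusted p up to 0.156). It is a paralogue of H2-K1 with which it can share reads. The costimulatory ligands Cd80 (0.11 ± 0.072) and Cd40 (0.11 ± 0.17) were not called, and neither was Cd86, although all 3 knockout libraries were below WT for it (-0.32 ± 0.13, adjusted p 0.094). In the fit of the 6 compared libraries alone Cd86 was called lower (adjusted p 4.41e-04). Of the 15 tested ligands of this kind Havcr2 and Tnfsf14 rose while Icosl and Nectin2 fell. These shares, 13.3% each way, are near the 9.89% and 10.3% of all tested genes. Fc receptors bind antibodies, and 2 of 6 tested rose: the inhibitory Fcgr2b from 506, 571 and 543 CPM to 618, 701 and 675 CPM (0.30 ± 0.065) and the activating Fcgr3 (0.15 ± 0.043), in both cases without overlap. The share of Fc receptors called higher, 33.3%, stands beside 9.89% of all tested genes. Fcgr3 kept its call in 5 of the 6 leave-one-out fits (lost without WT replicate 1, adjusted p up to 0.065). The fit of the 6 compared libraries alone also called the activating receptors Fcgr1 (adjusted p 1.76e-04) and Fcgr4 (adjusted p 2.08e-05).

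**Figure D4:**
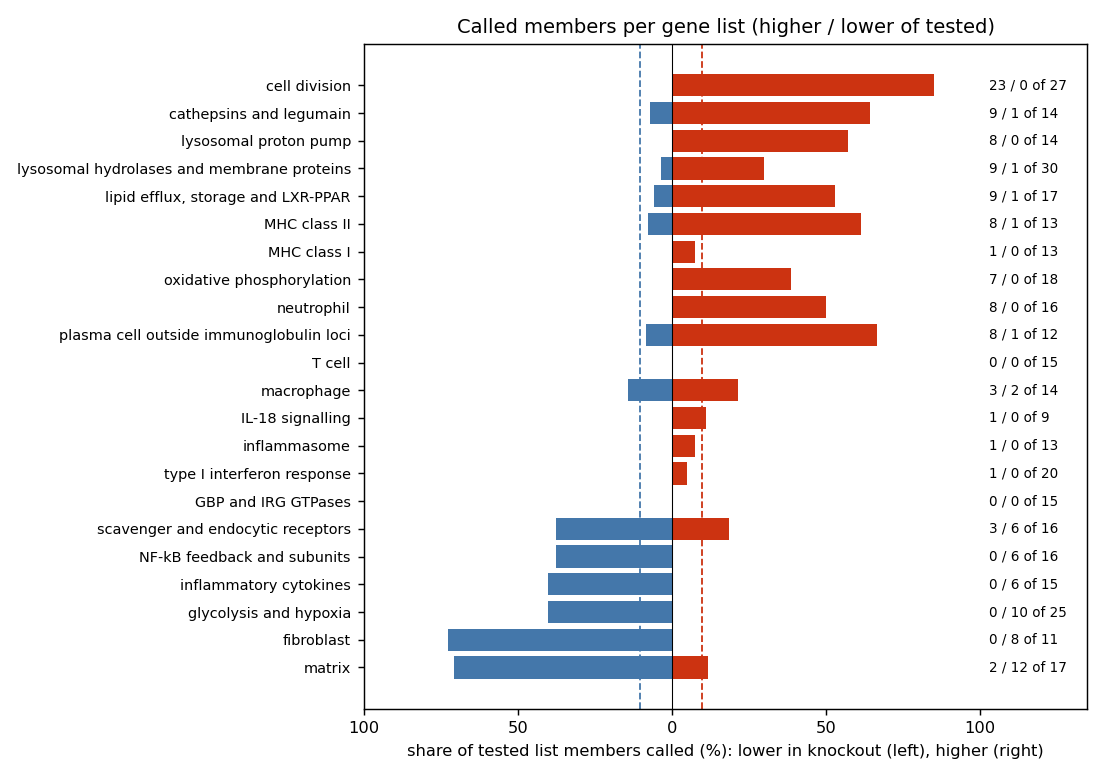
Share of tested genes called higher (right) and lower (left) in the knockout for 22 gene lists, in percent, with dashed lines at 9.89% and 10.3%, the shares of all tested genes called higher and lower. Cell division (23 of 27 higher) and matrix (12 of 17 lower) lie far from the dashed lines.

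Genes of the lysosome, where TMEM175 sits, were called higher more often than lower, by small amounts. Of 14 tested cathepsins and legumain 9 rose and 1 fell with a median of 0.21, of 30 hydrolases and membrane proteins 9 rose and 1 fell with a median of 0.088, and of 14 subunits of the proton pump (V-ATPase) 8 rose and none fell with a median of 0.12. Against the 9.89% of all tested genes called higher these are shares of 64.3%, 30% and 57.1%. Ctsb, an abundant cysteine protease, was at 8808, 9124 and 8715 CPM in WT and 10287, 10388 and 10094 CPM in knockout libraries (0.21 ± 0.037, adjusted p 1.72e-04). Lgmn, the asparaginyl endopeptidase that activates cathepsins, was at 1642, 1658 and 1609 CPM and 1949, 1985 and 1906 CPM (0.25 ± 0.038, adjusted p 1.74e-05). Both changes were small, 1.15-fold and 1.19-fold. Every knockout library lay above every WT library, and most called genes likewise had no overlap. Ctsf was the cathepsin that fell, from 4.66, 4.22 and 4.52 CPM to 2.71, 2.68 and 2.6 CPM (-0.74 ± 0.15). Among the hydrolases Gusb, β-glucuronidase, stood at 224, 239 and 222 CPM and 267, 269 and 284 CPM (0.26 ± 0.044), and Hexa, a β-hexosaminidase chain, at 555, 569.6 and 539.8 CPM and 632, 632 and 655 CPM (0.21 ± 0.038). Npc1, which exports cholesterol from lysosomes, was the 1 gene of that list called lower (-0.14 ± 0.039), in 3 of the 6 leave-one-out fits (lost without WT replicate 3 and without knockout replicates 1 and 3, adjusted p up to 0.112). Without knockout replicate 2 the hydrolase list held 5 genes called higher. Within the proton pump Atp6v0d2, a subunit used by macrophages and osteoclasts, rose from 62.9, 73.1 and 63.7 CPM to 106, 150.2 and 131 CPM, 1.94-fold (adjusted p 4.05e-04). The other called subunits changed by at most 0.23 (Atp6v0c), and the catalytic subunit Atp6v1a did not pass (0.012 ± 0.039). The pump count fell to 3 without WT replicate 3.

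The other lysosomal channels did not move as a group: of 16 tested, Tmem175 included, 4 rose and 4 fell. That is 25% each way, beside 9.89% and 10.3% of all tested genes. P2rx4, an ATP-gated cation channel of lysosomes, was at 329.7, 334 and 329 CPM in WT and 384, 395 and 376 CPM in knockout libraries (0.22 ± 0.038, adjusted p 1.16e-04), and Clcn7, the lysosomal chloride-proton exchanger, at 255, 271 and 264 CPM and 287, 304 and 296 CPM (0.17 ± 0.044). Neither overlapped between genotypes. Mcoln1, the calcium release channel TRPML1, differed by 0.019 ± 0.053 and was not called, whereas its relative Mcoln2 rose (0.23 ± 0.053). The 3 channels called lower beside Tmem175, namely Clcn3, Clcn6 and Tmem63a, were near the threshold: Clcn3 kept its call in 1 of the 6 leave-one-out fits (that without WT replicate 2, adjusted p up to 0.168 in the others), Clcn6 in 2 of the 6 leave-one-out fits (lost without WT replicates 2 and 3 and without knockout replicates 1 and 3, adjusted p up to 0.236) and Tmem63a in 1 of the 6 leave-one-out fits (that without knockout replicate 1, adjusted p up to 0.196 in the others). Of 21 tested genes of autophagy and of the TFEB family, the transcription factors that govern lysosomal genes, 2 rose and 4 fell, with a median of 0.0057. The share called higher, 9.52%, is near the 9.89% of all tested genes, and the share called lower was 19% beside 10.3%. Without WT replicate 1, WT replicate 3 or knockout replicate 2 no gene of the list was called higher, and without WT replicate 1 or knockout replicate 3 only 2 were called lower. Tfeb differed by 0.084 ± 0.085 and Tfe3 by 0.058 ± 0.033, neither called, while Mitf, their relative, fell (-0.17 ± 0.047). Mitf kept its call in 5 of the 6 leave-one-out fits (lost without knockout replicate 1, adjusted p up to 0.088). TFEB-type factors bind the letters CACGTG. Of 59 lysosomal genes with a listed promoter, 18 (30.5%) held them, against 5.93% of all promoters. Of the 18 genes with the letters 6 rose and 2 fell, and of the 41 without them 16 rose and 3 fell. The promoter of Lgmn is shown as an example of a gene that rose. Capitals mark CACGTG at -49 to -44.
Lgmn (chr12:102439093-102439342, minus strand): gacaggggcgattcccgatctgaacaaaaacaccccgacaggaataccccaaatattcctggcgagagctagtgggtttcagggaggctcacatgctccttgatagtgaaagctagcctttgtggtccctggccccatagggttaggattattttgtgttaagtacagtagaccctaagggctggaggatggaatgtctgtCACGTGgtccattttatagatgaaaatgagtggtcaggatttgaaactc

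Receptors that take up particles and lipids changed in both directions: of 16 tested scavenger and endocytic receptors 3 rose and 6 fell. The shares are 18.8% higher and 37.5% lower, beside 9.89% and 10.3% of all tested genes. Beside Marco, Cd5l, a secreted protein of tissue macrophages that binds CD36, fell from 89.9, 103 and 85.3 CPM to 33.6, 45.4 and 37.5 CPM (-1.26 ± 0.15, adjusted p 1.08e-05), and Cd163, the receptor for haptoglobin and haemoglobin, from 2.94, 3.27 and 2.8 CPM to 0.628, 1.29 and 0.854 CPM (-1.72 ± 0.23). Cd36, which binds oxidised lipoproteins and fatty acids, rose from 728, 753 and 685 CPM to 1027, 1314 and 1173 CPM (0.70 ± 0.088, adjusted p 1.73e-05), and Clec7a, the β-glucan receptor dectin-1, from 141, 171 and 163 CPM to 247, 278 and 297 CPM (0.79 ± 0.11, adjusted p 9.62e-05). The genotypes were separate in all 4. Msr1, scavenger receptor A, was not called (0.10 ± 0.06). Timd4, a receptor for dead cells, rested on 18 counts in WT and 3 in knockout libraries and is given without a fold. Its call held in 3 of the 6 leave-one-out fits (lost without WT replicate 3 and without knockout replicates 1 and 2, adjusted p up to 0.113). Lrp1 was called lower (-0.18 ± 0.041), but not in the fit that removes the length trend (adjusted p 0.565). Of 17 tested genes of lipid efflux, storage and the nuclear receptors LXR and PPAR 9 rose and 1 fell, the latter not without knockout replicate 1. Their median was 0.29. The shares are 52.9% higher and 5.88% lower, beside 9.89% and 10.3% of all tested genes. Plin2, which coats lipid droplets, was at 216, 220.2 and 194 CPM in WT and 330.3, 355 and 337 CPM in knockout libraries (0.70 ± 0.063, adjusted p 3.64e-08), Trem2, a lipid-sensing receptor, at 69.6, 84.8 and 74.2 CPM and 106, 132 and 123 CPM (0.66 ± 0.13), and Fabp4, a fatty acid chaperone, at 41.1, 49.5 and 40 CPM and 68.4, 93.6 and 85.7 CPM (0.92 ± 0.20). All 3 were separate between genotypes, and Apoe and Gpnmb rose as well (0.29 ± 0.044 and 0.37 ± 0.073). The cholesterol exporters Abca1 (-0.077 ± 0.07) and Abcg1 (0.076 ± 0.05) were not called. In sterol and fatty acid synthesis 1 of 18 tested genes was called (Scd2, -0.38 ± 0.10). The share called, 5.56%, stands beside 20.2% of all tested genes. Scd2 kept its call in 4 of the 6 leave-one-out fits (lost without WT replicate 2 and without knockout replicate 1, adjusted p up to 0.0758), and without knockout replicate 2 the list held 3 genes called lower.

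Among the markers and sensors of macrophages themselves, Adgre1 (F4/80) and Csf1r did not pass, with levels of 4514, 4799 and 4494 CPM against 4391, 4608 and 4582 CPM for Adgre1 (-0.024 ± 0.039) and with a difference of 0.042 ± 0.052 for Csf1r. Neither was called, and the groups overlapped. Cd14, the co-receptor for lipopolysaccharide, fell from 816, 833 and 855 CPM to 622, 590.2 and 619.5 CPM (-0.45 ± 0.078, adjusted p 3.99e-04). Cd68, a glycoprotein of endosomes and lysosomes, rose from 768, 771 and 758 CPM to 929.9, 990.4 and 898 CPM (0.29 ± 0.046). Both separated the genotypes. Of 13 tested Toll-like receptors and partners Tlr13, a sensor of bacterial ribosomal RNA, rose (0.41 ± 0.074) and Cd14 alone fell. These shares, 7.69% each way, are below the 9.89% and 10.3% of all tested genes. Tlr4 (0.23 ± 0.10) and Tlr2 (0.11 ± 0.066) were not called. Without knockout replicate 1 this list held 4 genes called higher. Itgax (CD11c), an integrin chain of dendritic cells and some macrophages, was at 15.3, 25.5 and 18.3 CPM in WT and 38.1, 43.1 and 44.9 CPM in knockout libraries (1.08 ± 0.18), with WT replicate 2 the highest WT library and no overlap. Of 10 tested genes of macrophage fusion and osteoclasts 3 rose: Ctsk, Atp6v0d2 and Acp5, the tartrate-resistant acid phosphatase, which was at 212, 212 and 210.1 CPM and 297, 275 and 286 CPM (0.44 ± 0.07, adjusted p 1.32e-04). The share of this list called higher was 30%, beside 9.89% of all tested genes. The fusion genes Dcstamp (-0.71 ± 0.49) and Ocstamp (-0.18 ± 0.74) were near the limit of detection and not called.

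Lyz1 and Lyz2 encode near-identical lysozymes and went opposite ways. Lyz1 was at 11.9, 17.1 and 12.2 CPM in WT and 71.5, 76.4 and 91.3 CPM in knockout libraries, 5.8-fold higher (adjusted p 1.37e-10), whereas Lyz2 was at 13119, 14962 and 14086 CPM and 7305, 7744 and 7988 CPM, 1.83-fold lower (adjusted p 7.91e-10). Neither overlapped between genotypes. How reads shared by the pair were divided is not given in the sources used here, so the levels of both are uncertain. A difference of strain or source between the genotypes was not tested either. Lyz2 took the largest share of the macrophage marker sum, and the same genotype gap stood in all 3 conditions with antigen: Lyz1 differed by 1.94 with antigen alone and 2.20 with IL-1β, Lyz2 by -1.11 and -0.90. Of 11 tested iron and heme genes 4 rose (36.4%) and 3 fell (27.3%), beside 9.89% and 10.3% of all tested genes. Their median was 0.0063. The counts were 2 higher without WT replicate 3, and 1 lower without WT replicate 1 or without knockout replicate 2 or 3. Spic, a transcription factor of iron-recycling macrophages, fell from 74.9, 64.4 and 68.3 CPM to 33.5, 29.7 and 30.7 CPM (-1.14 ± 0.13, adjusted p 3.56e-06), and Hmox1, heme oxygenase 1, was called lower (-0.36 ± 0.10), in 2 of the 6 leave-one-out fits (lost without WT replicates 1 and 3 and without knockout replicates 2 and 3, adjusted p up to 0.0834). Nfe2l2, which encodes NRF2, the regulator of antioxidant genes, rose from 320.2, 336 and 324 CPM to 371, 398 and 394 CPM (0.25 ± 0.045).

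Cell division genes rose together: 23 of 27 tested were higher (85.2%, beside 9.89% of all tested genes), none lower, with a median of 0.34. Birc5, the mitotic protein survivin, was at 10.2, 9.93 and 10.6 CPM in WT and 17.1, 15.7 and 15.2 CPM in knockout libraries (0.64 ± 0.078, adjusted p 5.62e-07). Kif20a, a kinesin of cytokinesis, was at 13.2, 11.8 and 11.7 CPM and 17.9, 19.9 and 17.6 CPM (0.60 ± 0.072), and Pcna, the sliding clamp of DNA replication, at 135, 131 and 130 CPM and 165, 156 and 162 CPM (0.29 ± 0.043). None of these overlapped. The 4 genes that did not pass were Mki67 (0.038 ± 0.07), Cenpe (0.21 ± 0.076, adjusted p 0.0251 with the replicate block), Mcm3 (0.11 ± 0.05) and Mcm6 (0.10 ± 0.049). Leaving out 1 library left 19 to 23 called. Which cells of the co-culture divided cannot be read from bulk RNA. The T cell marker sums overlapped between genotypes, and their part in the result was not tested. Many genes of mitosis carry CCAAT boxes near their start. Of the 23 genes of the list with a listed promoter, 20 (87%) held the letters CCAAT on either strand, against 34.2% of all promoters, and 8 (34.8%) held TTTGAA, the cell cycle homology region, against 16.3%. Of the 20 genes with CCAAT 16 rose and none fell, and the 3 without it (Birc5, Nusap1 and Tyms) rose as well, Tyms in 2 of the 6 leave-one-out fits (lost without WT replicates 1 and 3 and without knockout replicates 1 and 3, adjusted p up to 0.216). Ccnb2, cyclin B2, rose from 11.3, 11 and 11.3 CPM to 17.3, 15 and 15.9 CPM (0.52 ± 0.076, adjusted p 9.05e-06). Its promoter is shown because it holds 3 such boxes, in capitals, at -87 to -83, -54 to -50 and -21 to -17.
Ccnb2 (chr9:70421555-70421804, minus strand): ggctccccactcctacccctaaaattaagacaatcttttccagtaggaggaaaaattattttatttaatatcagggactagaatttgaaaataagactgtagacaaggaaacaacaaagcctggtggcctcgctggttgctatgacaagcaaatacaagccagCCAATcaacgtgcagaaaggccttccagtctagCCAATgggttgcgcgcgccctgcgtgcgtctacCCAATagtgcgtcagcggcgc

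Glycolysis and hypoxia genes were lower where called: 10 of 25 tested fell (40%, beside 10.3% of all tested genes) and none rose. The median was -0.24. Vegfa, vascular endothelial growth factor and a target of hypoxia-inducible factors, was at 408, 402 and 425 CPM in WT and 296, 291 and 287 CPM in knockout libraries (-0.50 ± 0.10, adjusted p 0.00271). Gpi1, glucose-6-phosphate isomerase, was at 854, 803 and 831 CPM and 746, 669.97 and 691 CPM (-0.24 ± 0.042, adjusted p 1.31e-04), and Hk2, hexokinase 2, at 358, 335 and 348 CPM and 308, 270.03 and 285 CPM (-0.27 ± 0.067). Pgk1, phosphoglycerate kinase 1, was at 970.1, 941 and 959.6 CPM and 899, 673 and 764 CPM (-0.30 ± 0.094). The genotypes were separate in these 4, but knockout replicate 1 was the highest knockout library in each. Without it 17 genes of the list fell, against 5 without knockout replicate 2 or 3 and 6 without any 1 of the WT libraries. Pgk1 kept its call in 1 of the 6 leave-one-out fits (that without knockout replicate 1, adjusted p up to 0.136 in the others). The late enzymes Gapdh (-0.15 ± 0.066), Eno1 (-0.17 ± 0.083) and Pkm (-0.054 ± 0.088) were not called, and knockout replicate 1 was within or above the WT range in each. Of 18 tested genes of oxidative phosphorylation 7 rose (38.9%, beside 9.89% of all tested genes) and none fell. The median was 0.10, and none of the list was called without WT replicate 3. Of the 24 glycolysis and hypoxia genes with a listed promoter, 15 (62.5%) held ACGTG, the core of the hypoxia response element, which is also contained in CACGTG, against 16.4% of all promoters. Of these 15 genes 9 fell, and of the 9 without the letters 1 fell (Gpi1). The promoter of Pgk1 is shown because it holds the core letters on both strands, in capitals, at -150 to -146 and -131 to -127.
Pgk1 (chrX:106186850-106187099, plus strand): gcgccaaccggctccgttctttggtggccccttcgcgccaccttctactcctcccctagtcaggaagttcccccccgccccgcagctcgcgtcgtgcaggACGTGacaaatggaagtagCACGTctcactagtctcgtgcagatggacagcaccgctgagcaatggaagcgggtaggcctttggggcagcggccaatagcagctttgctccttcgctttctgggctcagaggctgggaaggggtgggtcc

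Immunoglobulin transcripts were far higher in the knockout. Of 182 tested immunoglobulin genes 178 rose and none fell, with a median log2 fold change of 5.78, and of 163 tested variable segments 160 rose. Segments of a family are alike in sequence, so counts of single segments are uncertain. The strain and source of the lymphocytes in each genotype are not given, and their part in these differences was not tested. Ighg2c, the constant region of IgG2c, was at 0.861, 0.914 and 1.49 CPM in WT and 648, 439.5 and 575 CPM in knockout libraries (8.98 ± 0.34, adjusted p 9.23e-12). Igkc, the kappa light chain, was at 18.1, 16.2 and 16.8 CPM and 1056, 723 and 911 CPM (5.72 ± 0.26), and Igha at 14.8, 15.2 and 16.9 CPM and 349, 236 and 288 CPM (4.22 ± 0.25). In each of them knockout replicate 1 was the highest library, and the lowest knockout library was far above the highest WT library. Ighm rose less, from 30.6, 27.6 and 28.5 CPM to 121, 75.7 and 90.7 CPM (1.73 ± 0.19), and Ighd, the IgD chain of naive B cells, was the 1 of 12 constant regions that did not pass (0.18 ± 0.28). Genes of antibody-secreting cells outside the immunoglobulin loci rose with them, 8 of 12 tested (66.7%, beside 9.89% of all tested genes). Jchain, which joins IgA and IgM units, was at 6.69, 6.4 and 6.06 CPM in WT and 205, 141 and 182 CPM in knockout libraries, 27.6-fold higher, and Pou2af1, a coactivator of immunoglobulin transcription, was at 1.27, 1.13 and 1.35 CPM and 15.2, 8.21 and 11.4 CPM. Irf4, a transcription factor needed for plasma cells and also used by macrophages, rose from 3.29, 2.87 and 3.64 CPM to 10.2, 8.1 and 9.39 CPM (1.50 ± 0.15), and Xbp1, which expands the secretory apparatus, from 159, 152 and 152 CPM to 183, 168 and 176 CPM (0.19 ± 0.035). These 4 genes did not overlap between genotypes. Derl3, a protein of the endoplasmic reticulum, was supported by 3 counts in WT and 149 in knockout libraries. Sdc1, the surface marker CD138, went the other way, from 108, 118 and 110.04 CPM to 99.1, 87.9 and 89.5 CPM (-0.28 ± 0.066), and Tnfrsf17, the receptor BCMA, had 2 and 3 counts in all and was not tested. Of 9 tested B cell markers 3 rose (33.3%, beside 9.89% of all tested genes) and none fell, with a median of 0.02. Ms4a1 (CD20) rose from 1.37, 1.52 and 1.4 CPM to 4.64, 2.79 and 3.42 CPM (1.33 ± 0.24), whereas Pax5 (-0.17 ± 0.28) was not called. With the immunoglobulin genes left out before normalisation, 2626 genes were called, 1167 higher and 1459 lower.

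T cell markers were not called, 0 of 15 by edgeR's quasi-likelihood test and 0 by DESeq2, with 5 at an unadjusted p under 0.05. Their median was 0.34. Of all tested genes 20.2% were called. Cd8a was at 3.34, 2.66 and 3.22 CPM in WT and 4.4, 3.59 and 4.23 CPM in knockout libraries (0.42 ± 0.16, adjusted p 0.0588), with no overlap. Cd8a was called with the replicate block (adjusted p 0.0443). Leaving out knockout replicate 2 gave 2 calls and leaving out WT replicate 1 gave 1. Of 13 tested genes of natural killer and cytotoxic cells 3 rose (23.1%, beside 9.89% of all tested genes). Gzma, a granzyme, was at 1.01, 1.65 and 1.4 CPM in WT and 3.43, 2.25 and 2.85 CPM in knockout libraries (1.06 ± 0.25), and Nkg7, a protein of cytotoxic granules, at 2.53, 1.96 and 2.19 CPM and 3.67, 3.92 and 3.25 CPM (0.70 ± 0.15). Both sets were separate. Gzmb kept its call in 2 of the 6 leave-one-out fits (lost without WT replicates 1 and 2 and without knockout replicates 1 and 3, adjusted p up to 0.127), and Ncr1, a defining marker of natural killer cells, was at most 0.697 CPM in any library.

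Of 16 tested neutrophil markers, granule genes and others, 8 rose (50%, beside 9.89% of all tested genes) and none fell. Their median was 0.58. With antigen alone 3 of them were called higher, with a median of 0.072. With IL-1β 10 were called higher, with a median of 0.66. Ngp, neutrophilic granule protein, was at 13.9, 15.2 and 16.6 CPM in WT and 43.8, 32.8 and 46.6 CPM in knockout libraries (1.44 ± 0.14, adjusted p 8.05e-07), and the calprotectin chains S100a8 and S100a9 rose by 0.64 ± 0.11 and 0.62 ± 0.11, from 139, 164 and 154 CPM to 263, 212 and 237 CPM for the former. Cxcr2, the receptor for Cxcl1, rose from 4.76, 3.31 and 3.22 CPM to 6.86, 5.74 and 5.81 CPM (0.71 ± 0.17). No knockout library overlapped WT in these genes. The defining marker Ly6g was at most 0.253 CPM in all 6 libraries, and Csf3r (-0.027 ± 0.045) and Lcn2 (-0.039 ± 0.16) were not called. The granule gene Mpo, with a log2 fold change of 0.345, was not called either. The marker sum was 1238 to 1329 CPM in WT and 1525 to 1692 CPM in knockout libraries, with Csf3r, Lcn2 and Mmp8, none of them called, among its largest parts. Its part in the results on other lists was not tested.

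Fibroblast markers and matrix genes had the lowest medians of all 49 lists. Of 11 tested fibroblast markers 8 fell, with a median of -1.41, and of 17 matrix genes 12 fell and 2 rose, with a median of -1.45. The shares called lower, 72.7% and 70.6%, stand beside 10.3% of all tested genes. Fn1, fibronectin, was at 48.6, 55.6 and 55.4 CPM in WT and 9.95, 11.5 and 20 CPM in knockout libraries (-1.92 ± 0.27, adjusted p 8.46e-05). Postn, periostin, was at 8.96, 8.49 and 8.16 CPM and 0.966, 1.07 and 1.99 CPM (-2.62 ± 0.53), and Col3a1, a fibrillar collagen chain, at 13, 15.2 and 15 CPM and 3.43, 2.74 and 6.02 CPM (-1.79 ± 0.29). Knockout replicate 3 was the highest of the knockout libraries in each of the 3 genes and still below every WT library. Pdgfra, the receptor that defines many fibroblasts, was at 2.28, 2.39 and 2.38 CPM and 0.773, 0.536 and 1.26 CPM (-1.40 ± 0.33), and the fibroblast marker sum was 176.6 to 191.5 CPM in WT and 42.4 to 84.1 CPM in knockout libraries. The 2 matrix genes that rose, Tgfbi (0.38 ± 0.051) and Timp2 (0.39 ± 0.087), stand at over 100 CPM in both genotypes, and Thbs1 was not called (-0.034 ± 0.12). Of 9 tested dendritic cell markers 4 fell (44.4%, beside 10.3% of all tested genes) and 1 rose. Fscn1, an actin bundling protein of mature cells, was at 14.2, 12.6 and 16.7 CPM in WT and 6.33, 5.15 and 5.33 CPM in knockout libraries, without overlap (-1.37 ± 0.14). Zbtb46, a transcription factor of classical dendritic cells, was called lower too (-1.39 ± 0.42), and the marker called higher was Clec10a (0.67 ± 0.22). Without WT replicate 3 the list held 2 genes called lower. Zbtb46 kept its call in 2 of the 6 leave-one-out fits (lost without WT replicates 2 and 3 and without knockout replicates 2 and 3, adjusted p up to 0.0945). Clec10a kept its call in 1 of the 6 leave-one-out fits (that without knockout replicate 1, adjusted p up to 0.143 in the others).

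The same genotype contrast was made with antigen alone and with antigen plus IL-1β, which share no library with the comparison above or with each other. With antigen alone it called 2160 genes (15.3%), of all tested genes 7.7% higher and 7.62% lower, and with IL-1β 1941 genes (13.8%), 7.22% higher and 6.55% lower. Of the 2851 genes called with IL-18, 1429 (50.1%) were called with antigen alone, which is 66.2% of the calls there, and 1486 (52.1%) with IL-1β, 76.6% of the calls there. All shared calls had the same direction. The median size of the difference over the 2851 genes was 0.303 with IL-18, 0.204 with antigen alone and 0.226 with IL-1β, but these genes were selected on the first. The test of the difference itself called no gene: 0 of 14099 for IL-18 against antigen alone (lowest adjusted p 0.279, with 919 genes at an unadjusted p under 0.05 and 4 called by DESeq2), and 0 for IL-18 against IL-1β (lowest adjusted p 0.802, 573 genes unadjusted and none by DESeq2). For IL-18 against antigen alone, 5 genes were called with the replicate block and 17 without a filter on low counts. The lowest adjusted p with the block was that of Adgb, which encodes androglobin and was picked after its values were seen (log2 difference -0.73, adjusted p 1.55e-04). A missed threshold does not show that the genotype effects were alike, and the intervals given for single genes show what sizes remain possible. Tmem175 differed by -0.91 with antigen alone and -0.87 with IL-1β, a difference from IL-18 of 0.093 (95% interval -0.15 to 0.34) and 0.057 (95% interval -0.19 to 0.30). For Cd74 the genotype effect was 0.30 ± 0.23 with antigen alone, 0.66 ± 0.23 with IL-1β and 0.92 ± 0.23 with IL-18, and the difference between the last and the first was 0.62 (95% interval -0.066 to 1.31). Ciita gave 0.70 (95% interval -0.32 to 1.72) and H2-Aa 0.67 (95% interval -0.09 to 1.43), so that the class II genes had wide intervals that include 0. S100a8 had the genotype effect -0.018 ± 0.11 with antigen alone, 0.46 ± 0.11 with IL-1β and 0.64 ± 0.11 with IL-18. Its difference between IL-18 and antigen alone was 0.66 (95% interval 0.34 to 0.97), and S100a9 gave 0.59 (95% interval 0.27 to 0.90). Their unadjusted intervals leave out 0, but neither passed after adjustment with edgeR's quasi-likelihood test (adjusted p 0.62 for S100a8), while DESeq2's Wald test called both. Zyx, the focal adhesion protein zyxin, was picked after its values were seen, as the gene called in 4 of the alternative fits. Its genotype effect was 0.058 ± 0.053 with antigen alone and 0.42 ± 0.052 with IL-18, a difference of 0.37 (95% interval 0.21 to 0.52) (adjusted p 0.279). Ptgs1 gave 0.46 (95% interval 0.22 to 0.69) and was called without a filter on low counts (adjusted p 0.0188) and when knockout replicate 2 with antigen alone was left out (adjusted p 0.0394). Cell division genes lay in the other order, with a list median of 0.34 with IL-18, 0.45 with antigen alone and 0.37 with IL-1β. Ccnb2, 1 gene of that list, gave a difference of -0.28 (95% interval -0.50 to -0.061). That interval is unadjusted, and Ccnb2 was not called for this difference. For Il12b, which fell in all 3 conditions (-1.63, -1.37 and -1.20), the difference was 0.43 (95% interval -0.13 to 0.98).

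**Figure D5:**
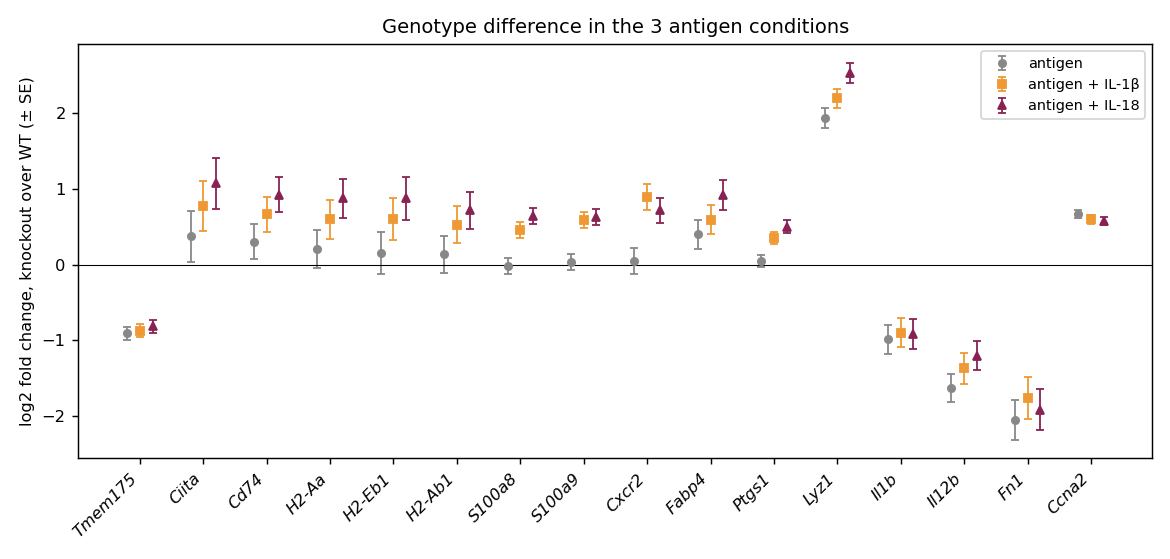
Log2 fold change of knockout over WT with its standard error (error bars) for 16 genes with antigen alone, antigen plus IL-1β and antigen plus IL-18. Tmem175, Il1b and Fn1 have overlapping bars in all 3 conditions, while Cd74, S100a8 and S100a9 stand highest with IL-18 without a called difference.

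Few genes were called in the response to IL-18 itself. Set against antigen alone, IL-18 gave no called gene in the WT co-cultures (0 of 14099, lowest adjusted p 0.412, 580 genes at an unadjusted p under 0.05, 1 by DESeq2) and 30 called genes (0.213%) in the knockout co-cultures, 7 higher (0.0496%) and 23 lower (0.163%), against 1748 unadjusted and 237 by DESeq2. These counts do not show that the genotypes respond differently, since the difference of the responses is the quantity of which no gene passed. The genes named here were picked after their values were seen. In the knockout the largest fall among the 30 was that of Hivep3, a zinc finger transcription factor, by 0.32 on the log2 scale, and Rictor, a subunit of mTOR complex 2, and Gsk3b, a kinase of many pathways, were lower by 0.26 and 0.19. Among the 7 that rose were Spsb3 (0.33), Zyx (0.26), Tnfaip8l2, a brake on innate immune signalling (0.25), and Coro1a, an actin-binding protein of leukocytes (0.20). The longest transcripts of the 23 lower genes had a median length of 10546 bases and those of the 7 higher genes 2004 bases, against 3160 bases for all tested genes. The part of transcript length in this response was not tested. The largest change of the 30 was smaller than the genotype difference at Tmem175, and Ifng was not among them.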

How the data were processed

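The authors deposited a table of raw read counts per gene for all 24 libraries. Per the labels' protocols, RNA was taken with Trizol and libraries came from poly(A) RNA. The submitters' processing notes name fastp and the build GRCm39. The aligner, the counter and the annotation release are not given in the sources used here. Of 55487 genes, 346 carried no symbol (0.0228% of counts). Libraries held 17744540 to 24898552 counts.

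Counts were fitted with edgeR 4.0.16 (R 4.3.3, limma 3.58.1): filterByExpr left 14099 genes with 99.9% of the counts, library sizes were scaled by TMM, and the robust quasi-likelihood F test used 1 coefficient for each of 8 groups, so that all 24 libraries set the spread. P-values were adjusted by Benjamini and Hochberg over all tested genes and called under 0.05. The code was tested on simulated counts. Lists were described by counts and medians, with no test of a list.

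Same-numbered libraries of the 2 genotypes with IL-18 deviated together over genes (r 0.186, 0.193 and 0.105), so the numbers may pair them. The main fit nevertheless holds no replicate term, and results not marked otherwise come from that unpaired fit. With antigen alone r was 0.343, 0.376 and -0.0153 and with IL-1β 0.244, 0.393 and 0.0518, so that replicate 3 missed 0.1 and the differences between conditions were not taken as paired. The fit with a replicate block is an alternative, as are DESeq2 1.42.0 (its Wald test and its size factors), no filter on low counts, the compared groups alone, no immunoglobulin genes, each library left out and, added after the data were seen, a length trend removed by an offset (longest GENCODE vM21 transcript).

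The members and lists were chosen with earlier results of these data known. Genes were named by rule: Tmem175, members of 49 lists (653 genes, 615 tested), and the 20 highest and 20 lowest called genes that averaged 2 log2 CPM or more, had a symbol and did not overlap between genotypes, immunoglobulin segments and predicted genes aside. Genes named for the difference between conditions and for the response to IL-18 alone, such as Zyx, Adgb, Tmem176a and Hivep3, were picked after their values were seen. Promoter sequences are RefSeq's on GRCm38.p6, a build other than that of the counts, and are matched by symbol only. Results on some genes are not reported here.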

Additional observations from a re-analysis of the deposited data

How the results depend on the processing

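Between 2402 (only the compared groups) and 3437 genes (replicate block) were called under the alternatives that kept all 6 libraries, against 2851. The replicate block, which takes same-numbered libraries as pairs, gave 1680 higher and 1757 lower. Leaving out 1 library gave 1867 to 2562 calls, 910 to 1249 of them higher and 957 to 1347 lower, and only WT replicate 3 moved the counts by over 1.5 times. The difference between IL-18 and antigen alone, with 0 genes called, gave 4 with DESeq2's Wald test (Tmem176a, Zyx, S100a8 and S100a9), 17 without a filter on low counts, 5 with the replicate block, 3 without knockout replicate 2 of antigen alone and 0 to 3 over all leave-one-out fits. The cause was not tested. The difference from IL-1β gave 0 in every alternative. Of 140 named genes called, 111 kept their call in all alternatives, 29 lost it in some alternative (26 of them without at least 1 library) and 0 changed direction. Of 61 named genes not called, 24 were called in some alternative. For the lists, the fit of the compared groups alone called 10 interferon-induced GTPases higher (against 0), DESeq2 1 lysosomal ion channel lower (against 4), the fit without a filter 4 MHC class II genes higher (against 8), and the removal of the length trend 2 oxidative phosphorylation genes higher (against 7). Depth limits the folds of genes such as Ifi208, whose WT level rests on 14 counts.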
